A study of Mus musculus with 8 samples.

Results

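The small leucine-rich proteoglycans (SLRPs) are described here through the transcripts of 8 genes, Dcn, Bgn, Aspn, Lum, Fmod, Prelp, Ogn and Podn, across the cells of the mouse liver. The genes were chosen by their symbols from the 46517 genes listed for every cell, and all 8 were found and passed the filter on low counts in every comparison below. SLRPs are secreted proteins built around a stretch of leucine-rich repeats, and most carry chondroitin, dermatan or keratan sulfate chains. They sit on collagen fibrils, where they bear on fibril diameter and spacing, and they bind growth factors of the TGF-beta family and several cell surface receptors. In the liver they are known as products of fibroblasts and hepatic stellate cells (HSC), the vitamin A-storing cells of the perisinusoidal space, and as components of the scar matrix in fibrosis.

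The data were single-cell transcriptomes made with the Smart-seq2 method from untreated livers of adult male and female mice. The mice were C57BL6/J or carried the reporters Pdgfrb GFP, Pdgfra H2bGFP, Cspg4 dsRED, Acta2 GFP or Cldn5 GFP, alone or combined and always heterozygous, and the labels do not tell which cell came from which strain or mouse. Cells were enriched by sorting, mesenchymal cells by the Pdgfra, Pdgfrb or Acta2 reporter or an antibody to PDGFRα, endothelial cells by CD31, VE-cadherin or the Cldn5 reporter, cholangiocytes by EPCAM, macrophages by CD68, and hepatocytes as unselected live cells. The 3491 cells form 8 samples, a male and a female pool for each of 4 classes: 998 male and 339 female mesenchymal cells, 655 and 451 endothelial cells, 255 and 396 immune cells, and 358 and 39 epithelial cells. All female mesenchymal cells came from 1 plate and the male ones from 9, so that sex and plate cannot be told apart in this class.

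Counts per cell ran from 47063 to 1128421 with a median of 228708, and the median was 182158 in male and 321121 in female mesenchymal cells. Each class carried its defining markers, with Pdgfrb at 1048 CPM (counts scaled to the same library total) in mesenchymal cells against at most 10.4 in the other classes, Pecam1 at 1359 in endothelial, Ptprc at 595 in immune and Krt18 at 1072 CPM in epithelial cells. The mesenchymal cells were divided by the authors' clusters into 14 populations. Fibroblasts comprised the clusters m1 (181 cells), m8 (156) and m10 (126), the peribiliary cluster m4 (98) and the Wt1+ clusters m11c (53) and m12c (60). The authors place m1 at the portal tract. Stellate cells comprised capsular m3c (113 cells) and sinusoidal m7c (72), and m5c (87) was taken by the authors to be second layer cells (SLC) of the vein wall. Smooth muscle cells (SMC) comprised arterial m2c (236 cells), portal venous m8c (72), venous m9c (39) and elastic m15c (33), and 6 mesothelial cells formed m16c. The populations carried the markers of their names (Reln 3627 CPM in m7c, Wif1 427 CPM in m4, Msln 3771 CPM in m16c), with 2 exceptions. Wt1 was at 56.6 CPM in m11c against 310.0 CPM in m12c, and m9c also held the stellate transcripts Lrat and Reln at 1122 and 341 CPM beside Acta2 at 3194 CPM. Levels below are CPM of the summed counts of all cells of a population in a pool, and m8 and m10 hold male cells only. Of the 156 cells of m8, 153 came from 1 plate, so that this population and its plate cannot be told apart.

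Of the 8 genes, 6 lie in 3 pairs of neighbours. On GRCm38, Dcn spans chr10:97479609-97518143 and Lum chr10:97565128-97572703, both on the plus strand, 47.0 kb apart with no coding gene between them. Prelp (chr1:133910304-133921414, minus strand) and Fmod (chr1:134037254-134048277, plus strand) lie 115.8 kb apart, also with no coding gene between them. Aspn (chr13:49544443-49567565) and Ogn (chr13:49608046-49624501) lie 40.5 kb apart on the plus strand, with a further SLRP gene, Omd, between them, and both fall within the span of Cenpp on the opposite strand, which shares 7 exonic bases with Aspn. Bgn (chrX:73483602-73495933, plus strand) and Podn (chr4:108014791-108096445, minus strand) have no other member as a neighbour. The span of Podn overlaps 3 other genes, among them the coding gene Scp2, without shared exonic bases. The antisense gene Gm15851 shares 350 exonic bases with Prelp. Since the sources used here do not state whether counting used strand, the reads in these shared bases cannot be told apart.

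RefSeq promoter windows of 300 bases, from 250 before to 50 after the start on GRCm38.p6, were at hand for 6 of the 8 genes, all but Dcn and Lum. The windows of 4 genes are shown because their transcripts carried the contrasts described below: Aspn and Fmod were the members called between fibroblasts and stellate cells, and Bgn and Prelp were the pair most alike over the summed populations. Capitals mark the letters of TATAAA or GGGCGG on either strand, and the runs are written 5′ to 3′ on the gene's own strand.
Aspn promoter (chr13:49544193-49544492, plus strand): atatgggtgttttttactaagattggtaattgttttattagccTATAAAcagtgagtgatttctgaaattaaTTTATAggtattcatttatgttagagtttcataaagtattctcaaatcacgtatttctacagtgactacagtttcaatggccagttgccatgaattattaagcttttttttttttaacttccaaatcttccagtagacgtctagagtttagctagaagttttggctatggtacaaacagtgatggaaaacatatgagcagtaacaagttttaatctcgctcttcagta
Fmod promoter (chr1:134037004-134037303, plus strand): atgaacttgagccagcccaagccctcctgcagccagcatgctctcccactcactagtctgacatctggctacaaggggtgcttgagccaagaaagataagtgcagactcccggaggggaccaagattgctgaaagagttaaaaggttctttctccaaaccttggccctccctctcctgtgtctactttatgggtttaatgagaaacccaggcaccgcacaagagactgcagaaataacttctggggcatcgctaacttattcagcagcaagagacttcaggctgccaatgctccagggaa
Bgn promoter (chrX:73483351-73483650, plus strand): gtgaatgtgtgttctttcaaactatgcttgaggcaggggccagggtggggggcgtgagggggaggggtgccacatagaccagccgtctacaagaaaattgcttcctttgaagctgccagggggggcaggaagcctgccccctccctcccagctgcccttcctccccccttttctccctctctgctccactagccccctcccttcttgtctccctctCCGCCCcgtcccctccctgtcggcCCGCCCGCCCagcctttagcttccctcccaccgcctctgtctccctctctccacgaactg
Prelp promoter (chr1:133921352-133921651, minus strand): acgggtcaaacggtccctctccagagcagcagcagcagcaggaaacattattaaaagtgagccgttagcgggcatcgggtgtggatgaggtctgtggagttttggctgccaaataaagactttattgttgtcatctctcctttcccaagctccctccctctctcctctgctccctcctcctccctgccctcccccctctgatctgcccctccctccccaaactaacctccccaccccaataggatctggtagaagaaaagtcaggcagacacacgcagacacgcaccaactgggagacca
The Aspn window held TATAAA at -207 and -178 from the start and had a GC content of 31.0%, against a median of 52.7% over 32851 promoter windows, of which 13.6% hold TATAAA. The Bgn window held GGGCGG, the core of a GC box, at -34, -10 and -6, the last 2 of them overlapping, with a GC content of 63.7%, and 35.7% of all windows hold this motif. The Fmod (51.0% GC) and Prelp (55.3% GC) windows held neither motif. Searches on both strands for the CArG box, the serum response factor motif found in 1.63% of windows, for TGANTCA, the AP-1 motif found in 7.81%, and for GGAATG, a TEAD motif found in 14.7%, gave 1 match in the 6 genes, GGAATG at -86 in Ogn. These matches describe the letters of the windows only.

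Mesenchymal cells carried more of all 8 transcripts than the mean of the other 3 classes. Together the 8 genes took 1.51% of all counts in mesenchymal cells, against 0.268% in endothelial, 0.0426% in epithelial and 0.0154% in immune cells. Fmod, which encodes fibromodulin, a keratan sulfate SLRP of collagen fibrils, stood at 1016 (male) and 825 (female) CPM in the mesenchymal pools, while the 6 pools of the other classes lay between 0.181 and 2.81 CPM. Its log2 fold change was 9.38 ± 0.78 (SE, edgeR's quasi-likelihood test, Benjamini-Hochberg adjusted p = 0.000504). Aspn, encoding asporin, stood at 108 and 113 CPM in the mesenchymal pools and at 0.0520 to 2.16 CPM elsewhere, a log2 fold change of 8.60 ± 0.77 (edgeR's quasi-likelihood test, Benjamini-Hochberg adjusted p = 0.000635). At 20 or more counts it was found in 0 of 1106 endothelial cells, which allows a share of up to 0.271%, and in 18.8% of mesenchymal cells (exact binomial 95% interval 16.7 to 20.97%). The mesenchymal share was 14.5% in the male and 31.3% in the female pool.

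The other 6 members followed the same direction with different margins. Lum, encoding the keratan sulfate SLRP lumican, was 8.04 ± 0.72 higher on the log2 scale, Podn (podocan) 8.03 ± 0.81, Ogn (osteoglycin) 7.57 ± 1.15 and Dcn (decorin) 6.81 ± 0.60, with Benjamini-Hochberg adjusted p between 0.000632 and 0.00497 in edgeR's quasi-likelihood test. Prelp, encoding an SLRP that binds heparan sulfate, and Bgn (biglycan) had the smallest margins, 4.10 ± 0.43 and 3.92 ± 0.28, with Benjamini-Hochberg adjusted p of 0.00118 and 0.000346 in edgeR's quasi-likelihood test. All 8 members were called higher, a call needing an adjusted p under 0.05 and a log2 difference of 1 or more, where 9.32% of the 24046 genes tested were called higher and 2.26% lower. Since cells were sorted and clustered by the authors on the same transcriptomes, p-values between classes or populations are not independent of how these were made, and with pools of unnamed mice they measure the spread between pools only. The call of Ogn was lost without the filter on low counts (edgeR's quasi-likelihood test, Benjamini-Hochberg adjusted p = 0.0507).

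**Figure D1:**
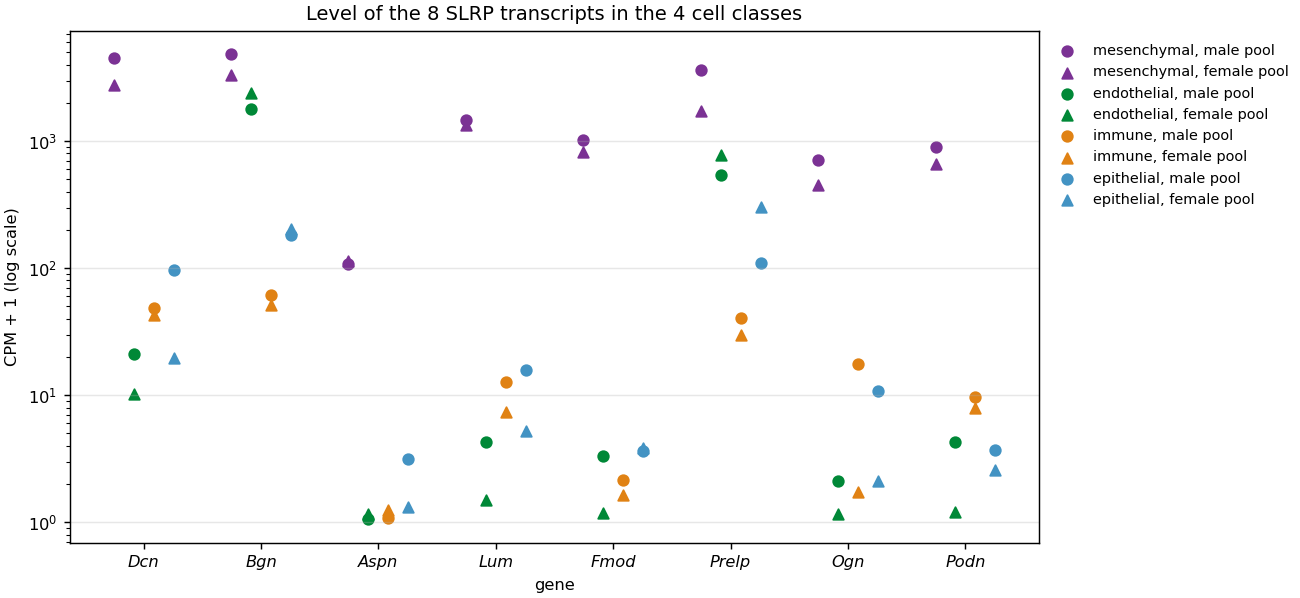
Level of each SLRP transcript (CPM + 1, log scale) in the male pool (circles) and the female pool (triangles) of the mesenchymal, endothelial, immune and epithelial classes. All 8 genes are highest in the mesenchymal pools, and Bgn and Prelp are the members whose endothelial pools come nearest to them.

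Bgn and Prelp were the members carried by endothelial cells too. Bgn, a chondroitin and dermatan sulfate proteoglycan that also signals through Toll-like receptors, stood at 1781 and 2403 CPM in the male and female endothelial pools, beside 4807 and 3336 CPM in the mesenchymal pools, and at 50.2 to 201 CPM in the 4 immune and epithelial pools. Its endothelial level was above the mean of immune and epithelial cells by 4.27 ± 0.33 on the log2 scale (edgeR's quasi-likelihood test, Benjamini-Hochberg adjusted p = 0.000712). Prelp stood at 539 and 772 CPM in the endothelial pools and at 28.5 to 300.2 CPM in the immune and epithelial ones, which gave 2.93 ± 0.48 (edgeR's quasi-likelihood test, Benjamini-Hochberg adjusted p = 0.0111). These were the 2 members called in a comparison in which 5.66% of genes were called higher and 3.16% lower. The other 6 were between 0.0520 and 20.2 CPM in both endothelial pools, with log2 differences from -3.55 ± 1.48 for Ogn to -0.41 ± 0.80 for Fmod that were not called. Without the female endothelial pool the call of Prelp was lost (edgeR's quasi-likelihood test, Benjamini-Hochberg adjusted p = 0.0571). Some members moved to a lower call in other fits, among them Lum (-2.66) with the pool as a block at an adjusted p of 0.0365, Podn (-4.42) without the male endothelial pool at 0.0277, and Dcn (-2.28) without the female epithelial pool at 0.0411, each by the same edgeR test. DESeq2's Wald test called Dcn (-1.96), Lum (-2.50), Aspn (-2.31) and Ogn (-3.60) lower, and thinning did so for Aspn (-3.32).

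Within endothelial cells the 2 transcripts had different profiles, given as a description. Bgn was highest in the central vein clusters e7 (3782 CPM male and 3714 CPM female) and e1 (3136 and 3365 CPM), and it lay at 905 to 2333 CPM in the sinusoidal clusters e3, e5, e6 and e8. In the portal vein cluster e2 it stood at 2136 and 1958 CPM. Prelp, in contrast, was lowest in e2, at 64.6 and 34.6 CPM, and highest in the lymphatic cluster e4, at 1956 and 2246 CPM. Between these lay the sinusoidal clusters e5 (208 and 76.3 CPM), e3 (247 and 208 CPM) and e8 (574 and 322 CPM). Higher levels were found in e7 (1342 and 838 CPM), e1 (1081 and 1174 CPM) and e6 (1264 and 1147 CPM), the cluster labelled as the last sinusoid. The 14 cells of e2 labelled as peribiliary vasculature held Bgn at 491 CPM and Prelp at 9.43 CPM, where the 114 portal vein cells held 2258 and 53.8 CPM. The median cell held Bgn at 58.1 CPM in the peribiliary and 2335 CPM in the portal vein cells, but Prelp at 8.97 and 6.97 CPM. The Prelp sum of e2 rests on few cells, since 3 of the 68 male e2 cells held 79.1% of its counts in that pool. The difference of the 14 peribiliary cells from the portal vein cells was not tested.

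**Figure D2:**
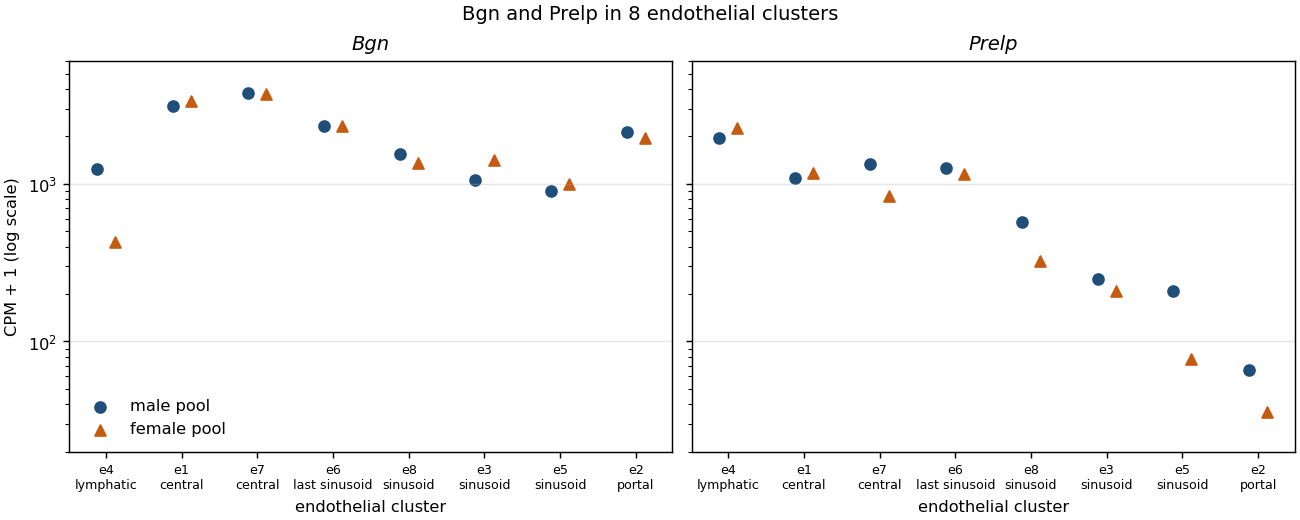
Level of Bgn and Prelp (CPM + 1, log scale) in 8 endothelial clusters, with circles for the male and triangles for the female pool. Prelp falls from 1956 and 2246 CPM in lymphatic cluster e4 to 64.6 and 34.6 CPM in portal cluster e2, while Bgn is at 2136 and 1958 CPM in e2 and highest in the central vein clusters e7 and e1.

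In some non-mesenchymal clusters a few cells carried most of the remaining members' counts, and in others the counts were spread. Of the 9 male cells of lymphatic cluster e4, 1 held 96.2% of the Dcn, 98.3% of the Lum, 98.9% of the Fmod and 99.6% of the Podn counts, and the same share pattern held for Pdgfrb (99.1%) and Col1a1 (96.4%). The 24 immune cells of cluster i4 that the authors labelled Cont held Dcn at 923 CPM and Bgn at 1240 CPM, against 15.9 and 40.1 CPM in the 24 cells of i4 labelled Cyc. In male e5 the 3 highest of 120 cells held 14.3% of the Dcn counts. In hepatocytes Dcn counts were spread as well. The 201 male hepatocytes held Dcn at 193 CPM, 76 of them had at least 20 counts, the highest cell had 4.68% of the counts, and Col1a1 and Col1a2 stood at 37.1 and 39.6 CPM. The part of RNA from other cells in these values was not tested, and without the Cont cells or without e4 all 8 members were still called higher in mesenchymal cells. Without e4, Podn and Lum both had a log2 difference of -3.25 between endothelial cells and the mean of immune and epithelial cells, and both were called lower (edgeR's quasi-likelihood test, Benjamini-Hochberg adjusted p = 0.0184 and 0.0356).

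Among the class I members, Dcn and Bgn were carried by nearly every mesenchymal cell type, while Aspn was high in few. Dcn, whose product decorates the surface of type I collagen fibrils, was highest in sinusoidal stellate cells (7356 CPM in male cells and 5649 CPM in the 4 female ones), then in m12c (6732 and 5523 CPM) and SLC (6563 and 4819 CPM). It was lowest in arterial SMC m2c, at 188 and 371 CPM, where 65.7% of cells had at least 20 counts (exact binomial 95% interval 59.2 to 71.7%) against 100% in each fibroblast and stellate population. At a limit of 1 count, Dcn was found in 100% of m2c cells too. Other SMC held more Dcn, from 1457 CPM in female m8c to 4910 CPM in male m9c. Ordered by level over the 10 populations with at least 5 cells in both pools, 6 of the 9 neighbouring pairs of Dcn overlapped in their pools, and the steps from m4 to m15c, m15c to m8c and m8c to m2c did not. Bgn varied least, between 2202 CPM in female m2c and 6156 CPM in male m3c, and 8 of its 9 neighbouring pairs overlapped.

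Aspn, whose product has an aspartate stretch and binds TGF-beta, was high in 3 of the 4 SMC populations. It was highest in arterial m2c (440 CPM male and 247 CPM female), portal venous m8c (467 and 236 CPM) and elastic m15c (388 and 270 CPM). Venous m9c held less, 103 and 84.0 CPM. Among fibroblasts only m11c came near these levels, at 230 and 183 CPM, and its Wt1+ partner m12c held 8.25 and 3.16 CPM. Stellate cells held 0.902 and 4.16 CPM in capsular m3c and 0.648 and 5.03 CPM in sinusoidal m7c. At 20 or more counts Aspn was found in 54.2% of m2c cells (exact binomial 95% interval 47.7 to 60.7%), 59.7% of m8c cells (47.5 to 71.1%) and 35.8% of m11c cells (23.1 to 50.2%), and in 0 of 113 m3c cells, which allows a share of up to 2.65%, and 0 of 72 m7c cells, which allows up to 4.17%. With every cell thinned to 50000 counts, the 13 shallower cells of all classes left out, and a limit of 1 count, these shares were 64.4% in m2c, 68.1% in m8c, 43.4% in m11c, 5.41% in m3c and 4.17% in m7c, and unthinned at 1 count they were 72.9, 72.2, 67.9, 25.7 and 16.7%. The intervals and limits cover counting error only.

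Of the class II members, Fmod was uneven among fibroblasts and among stellate cells. It stood at 1846 and 2024 CPM in portal fibroblasts m1, 2366 CPM in m8 and 1948 CPM in m10. The 6 mesothelial cells held 1332 and 2042 CPM, and SLC held 964 and 1138 CPM. The 2 stellate populations held 937 and 501 CPM in capsular m3c against 18.7 and 38.6 CPM in sinusoidal m7c, without overlap of their pools. In SMC Fmod ran from 14.5 CPM in male m2c to 195 CPM in female m9c. By cells, 88.1% of m10 (exact binomial 95% interval 81.1 to 93.2%) and 47.8% of m3c (38.3 to 57.4%) had at least 20 counts of Fmod, against 2.78% of m7c (0.338 to 9.68%). At 1 count the shares were 100, 89.4 and 68.1%, and after thinning 96.8, 72.1 and 37.5%, in the same order of m10, m3c and m7c.

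Lum was even over fibroblasts, stellate cells and SLC, where it ran from 1208 CPM in m10 to 2465 CPM in female m12c. It was low in m2c (34.6 and 84.3 CPM), m8c (215 and 281 CPM) and m9c (559 and 580 CPM), but elastic SMC m15c held 1353 and 1580 CPM. Lum thus separated the SMC clusters from one another, with no overlap of pools between any neighbours in the order from m15c down to m2c. Mesothelial cells held 4.80 and 97.9 CPM of Lum while holding Fmod at 1332 and 2042 CPM and Podn at 1184 and 1953 CPM. Prelp was highest in sinusoidal stellate cells (5287 and 3781 CPM), and it stood at 4582 and 2452 CPM in SLC and at 4466 and 4533 CPM in the male fibroblasts m8 and m10. It was lower in the Wt1+ fibroblasts m11c (1931 and 883 CPM) and m12c (1489 and 1343 CPM), and lowest in m2c (815 and 538 CPM).

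Ogn, the class III member, and Podn, a class V member that binds collagen and was named after podocytes, completed the set. Ogn was highest in m11c (1687 and 858 CPM) and lowest among the 10 ordered populations in m15c (274 and 199 CPM), and all 9 of its neighbouring pairs overlapped, so that its order was not resolved by the pools. Podn ran from 960 CPM in female m12c to 1590 CPM in m8 over m1, m8, m10, m12c, m9c and SLC, and mesothelial cells held 1184 and 1953 CPM. It stood at 248 and 440 CPM in peribiliary m4 and at 8.46 and 32.3 CPM in arterial m2c, where 0.847% of cells had at least 20 counts (exact binomial 95% interval 0.103 to 3.03%) although 82.2% had at least 1, or 58.5% after thinning. In the other SMC clusters that share was 37.5% in m8c, 79.5% in m9c and 21.2% in m15c.

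**Figure D3:**
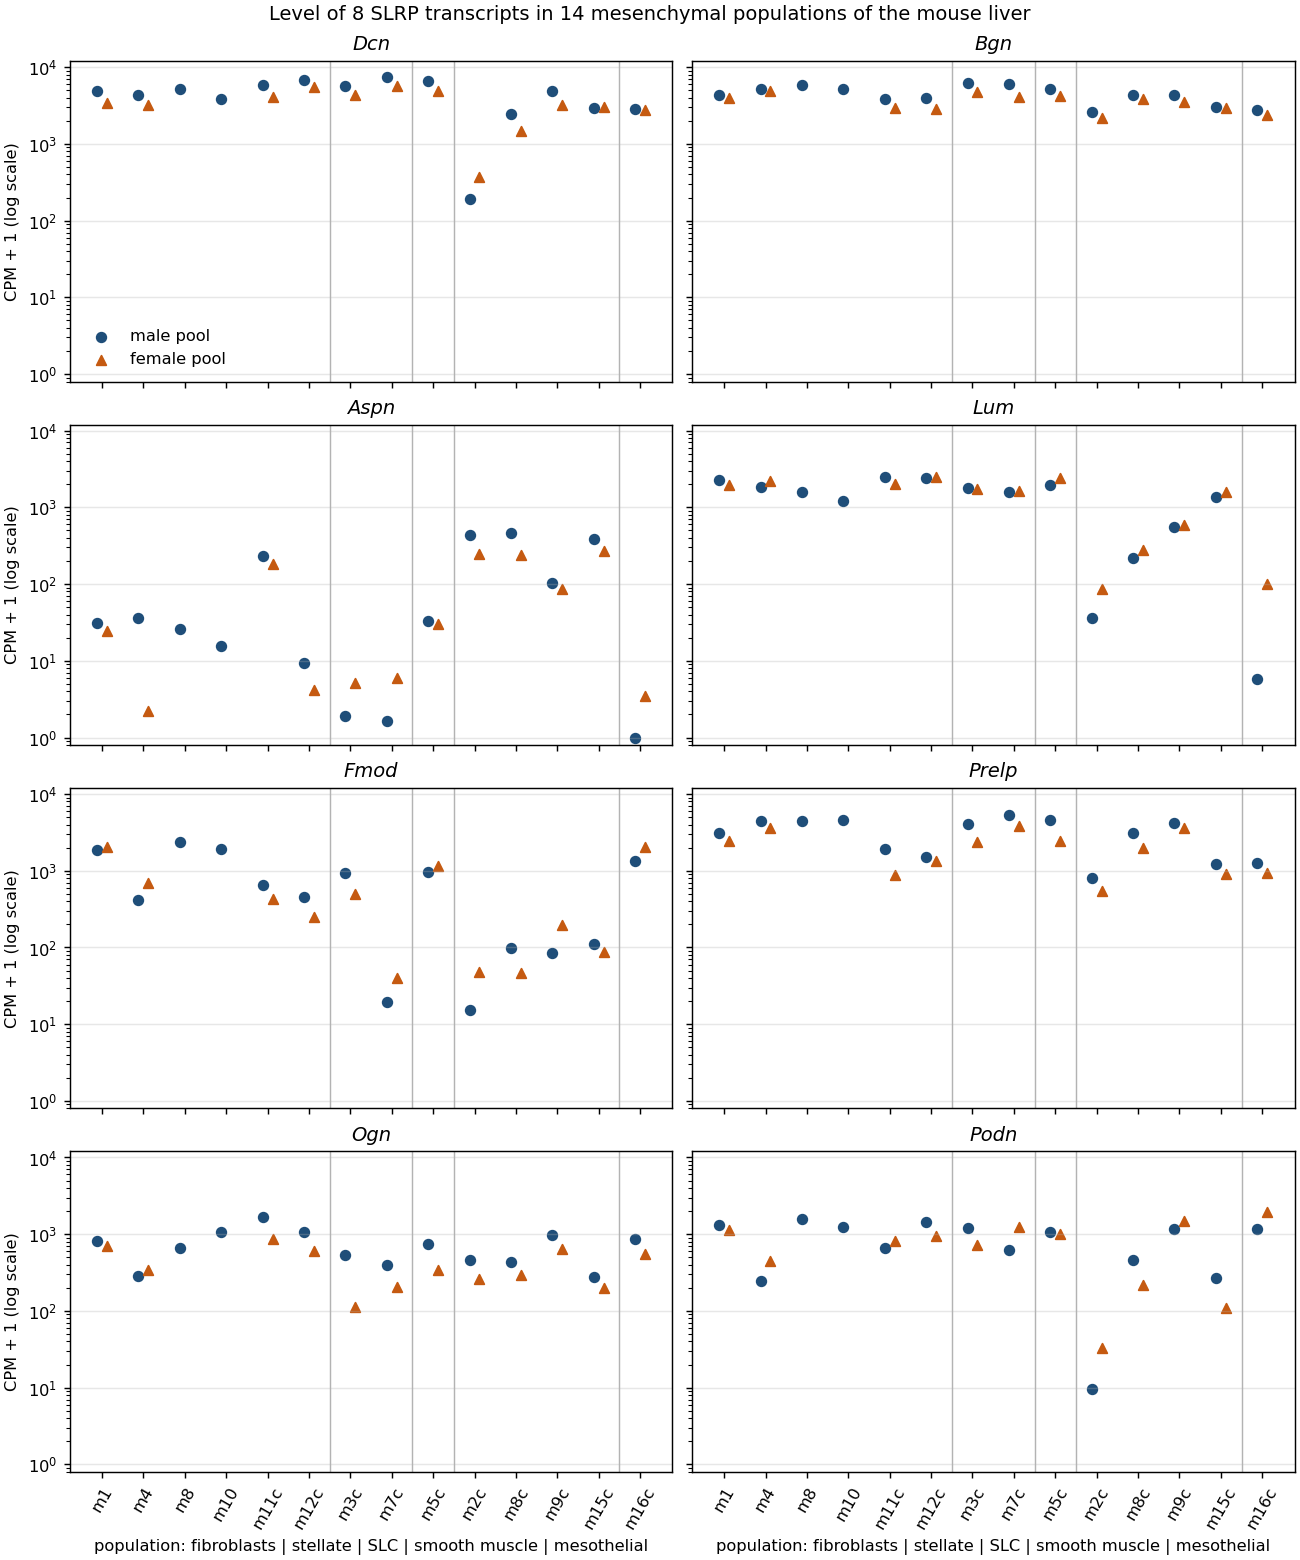
Level of each SLRP transcript (CPM + 1, log scale) in 14 mesenchymal populations, in the order fibroblasts, stellate cells, second layer cells (SLC), smooth muscle and mesothelial cells, with circles for the male and triangles for the female pool. Bgn runs from 2202 to 6156 CPM, Aspn is highest in smooth muscle and m11c, and Fmod is low in sinusoidal stellate cells m7c (18.7 and 38.6 CPM) and arterial smooth muscle m2c (14.5 and 47.1 CPM).

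Fibroblasts were compared with SMC to see which members separate the stroma from the contractile cells of the vessel wall. Fmod stood at 1478 and 1548 CPM in the male and female fibroblast pools and at 55.3 and 65.4 CPM in the SMC pools, a log2 difference of 4.67 ± 0.39 (edgeR's quasi-likelihood test, Benjamini-Hochberg adjusted p = 0.00307). Lum stood at 1809 and 2064 CPM against 217 and 372 CPM, a difference of 2.74 ± 0.29 (edgeR's quasi-likelihood test, Benjamini-Hochberg adjusted p = 0.00787). Neither gene's pools overlapped between the types, and these were the 2 members called where 0.492% of genes were called higher and 0.180% lower. Aspn had the opposite sign, 44.9 and 25.5 CPM against 400.3 and 236 CPM, but its difference of -3.15 ± 0.73 missed the threshold (edgeR's quasi-likelihood test, Benjamini-Hochberg adjusted p = 0.141). Leaving out each pool in turn ended the call of Lum once, without the female fibroblast pool (2.63, edgeR's quasi-likelihood test, Benjamini-Hochberg adjusted p = 0.0549).

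Podn (2.06 ± 0.39) and Dcn (1.63 ± 0.32) were also higher in fibroblasts in both pools, with Benjamini-Hochberg adjusted p of 0.0693 and 0.0747 in edgeR's quasi-likelihood test. With the pool as a block both were called, at adjusted p of 0.014 and 0.00267, and so was Prelp (1.07, 0.0144), which had an adjusted p of 0.691 without it by the same edgeR test. Since m9c carried stellate transcripts, the comparison was repeated without it. Then Dcn was 2.06 ± 0.30 higher in fibroblasts (edgeR's quasi-likelihood test, Benjamini-Hochberg adjusted p = 0.0199), and Podn 3.04 ± 0.56 (adjusted p = 0.0512). Ogn (0.93 ± 0.70) and Bgn (0.56 ± 0.28) were not called in any of these fits.

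The cells assigned to SLC were set against SMC in the same fit. They carried 4.20 ± 0.38 more Fmod on the log2 scale (964 and 1138 CPM against 55.3 and 65.4 CPM), 2.98 ± 0.29 more Lum (1946 and 2405 CPM against 217 and 372 CPM) and 2.10 ± 0.32 more Dcn (6563 and 4819 CPM against 1687 and 1099 CPM). The Benjamini-Hochberg adjusted p were 0.00411, 0.00501 and 0.0279 in edgeR's quasi-likelihood test, so that 3 members were called where 0.448% of genes were called higher and 0.341% lower. Podn was 2.11 ± 0.39 higher at an adjusted p of 0.0528, which the pool as a block brought to 0.0114, and the same block brought Prelp (1.33) from 0.364 to 0.0066 in the same edgeR test. Aspn stood at 32.2 and 28.7 CPM in SLC, a difference of -3.32 ± 0.74 that was not called (edgeR's quasi-likelihood test, Benjamini-Hochberg adjusted p = 0.101). Without m9c Podn was 3.09 ± 0.56 higher and was called (adjusted p = 0.0379, same edgeR test). The call of Dcn was lost without the male SLC (1.83, adjusted p = 0.145), the female SLC (2.30, 0.103) or the female SMC pool (1.76, 0.158), and that of Lum without the female SLC (2.82, 0.0505), each by the same edgeR test.

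Fibroblasts and stellate cells differed in 2 members, Fmod and Aspn, where 0.604% of genes were called higher and 0.146% lower. Fmod was 3.65 ± 0.34 higher in fibroblasts than in the mean of the 2 stellate populations (edgeR's quasi-likelihood test, Benjamini-Hochberg adjusted p = 0.00543). Aspn was 4.80 ± 0.76 higher (edgeR's quasi-likelihood test, Benjamini-Hochberg adjusted p = 0.0307), with 44.9 and 25.5 CPM in fibroblasts. This level was uneven over the fibroblast clusters, with 230 and 183 CPM in m11c. Female m4 and female m12c held 1.19 and 3.16 CPM, where female capsular m3c held 4.16 CPM. The call of Aspn was lost without the male (4.24, adjusted p = 0.0976) or the female fibroblast pool (5.10, 0.0892), and with the 4 female m7c cells taken in as a sum (3.78, 0.0990), each by the same edgeR test. The remaining members, Dcn (-0.54 ± 0.29), Bgn (-0.44 ± 0.26), Prelp (-0.49 ± 0.47), Lum (0.18 ± 0.25), Podn (0.40 ± 0.35) and Ogn (1.04 ± 0.65), lay within 2 standard errors of 0 and were not called. Between capsular and sinusoidal stellate cells Fmod was the 1 member called, higher in the capsular cells by 5.23 ± 0.54 on the log2 scale (edgeR's quasi-likelihood test, Benjamini-Hochberg adjusted p = 0.044), where 0.0195% of genes were called higher and 0.00487% lower. The sinusoidal side is 1 male sum, since its 4 female cells fell short of the 5 required, so it was assumed to vary like the other types. The call was lost with the pool as a block (adjusted p = 0.0535) and without the male (4.66, 0.116) or the female capsular pool (5.64, 0.0501) in the same edgeR test.

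Within fibroblasts, the peribiliary cluster m4, which surrounds the bile ducts, carried less Podn than the mean of the other 5 clusters. Its 248 and 440 CPM compare with 668 to 1590 CPM in the 8 other sums, without overlap, a difference of -1.84 ± 0.33 (edgeR's quasi-likelihood test, Benjamini-Hochberg adjusted p = 0.0315). Podn was the 1 member called there, where 0.128% of genes were called higher and 0.0770% lower. Its call was lost with the pool as a block (-1.86, adjusted p = 0.109), without the sums of under 10 cells (-2.30, 0.307), and without the male (-1.51, 0.208) or female m4 sum (-2.33, 0.140) or the male (-1.87, 0.0632) or female m11c sum (-1.82, 0.0665), each in the same edgeR test. In DESeq2's Wald test the adjusted p was 0.0569. Ogn was lower too, 288 and 336 CPM against 598 to 1687 CPM, with a difference of -1.61 ± 0.36 that was not called (edgeR's quasi-likelihood test, Benjamini-Hochberg adjusted p = 0.107). It was called without the male m1 (-1.58, 0.0311), the female m1 (-1.63, 0.0372) or the female m12c sum (-1.69, 0.0412) in the same edgeR test. Prelp (0.54 ± 0.25), Bgn (0.15 ± 0.20) and Lum (0.05 ± 0.21) were not called.

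The Wt1+ fibroblasts m11c and m12c, annotated as capsular, carried less Fmod and less Prelp than the other fibroblasts. Fmod stood at 249 to 644 CPM in their 4 sums against 411 to 2366 CPM in the 6 sums of m1, m4, m8 and m10, and the overlap came from m4. The difference was -1.75 ± 0.27 (edgeR's quasi-likelihood test, Benjamini-Hochberg adjusted p = 0.0034). Prelp stood at 883 to 1931 CPM against 2447 to 4533 CPM with no overlap, a difference of -1.44 ± 0.22 (edgeR's quasi-likelihood test, Benjamini-Hochberg adjusted p = 0.00383). These were the 2 members called where 0.575% of genes were called higher and 0.441% lower, and both were called in all 8 fits that left out 1 sum. Without the female m4 and m11c sums, which hold under 10 cells, the adjusted p was 0.0937 for Fmod (-1.50) and 0.0501 for Prelp (-1.24) in the same edgeR test. Dcn (0.42 ± 0.18), Lum (0.49 ± 0.17), Ogn (0.72 ± 0.26) and Bgn (-0.53 ± 0.17) had differences of less than 1 on the log2 scale and were not called.

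**Figure D4:**
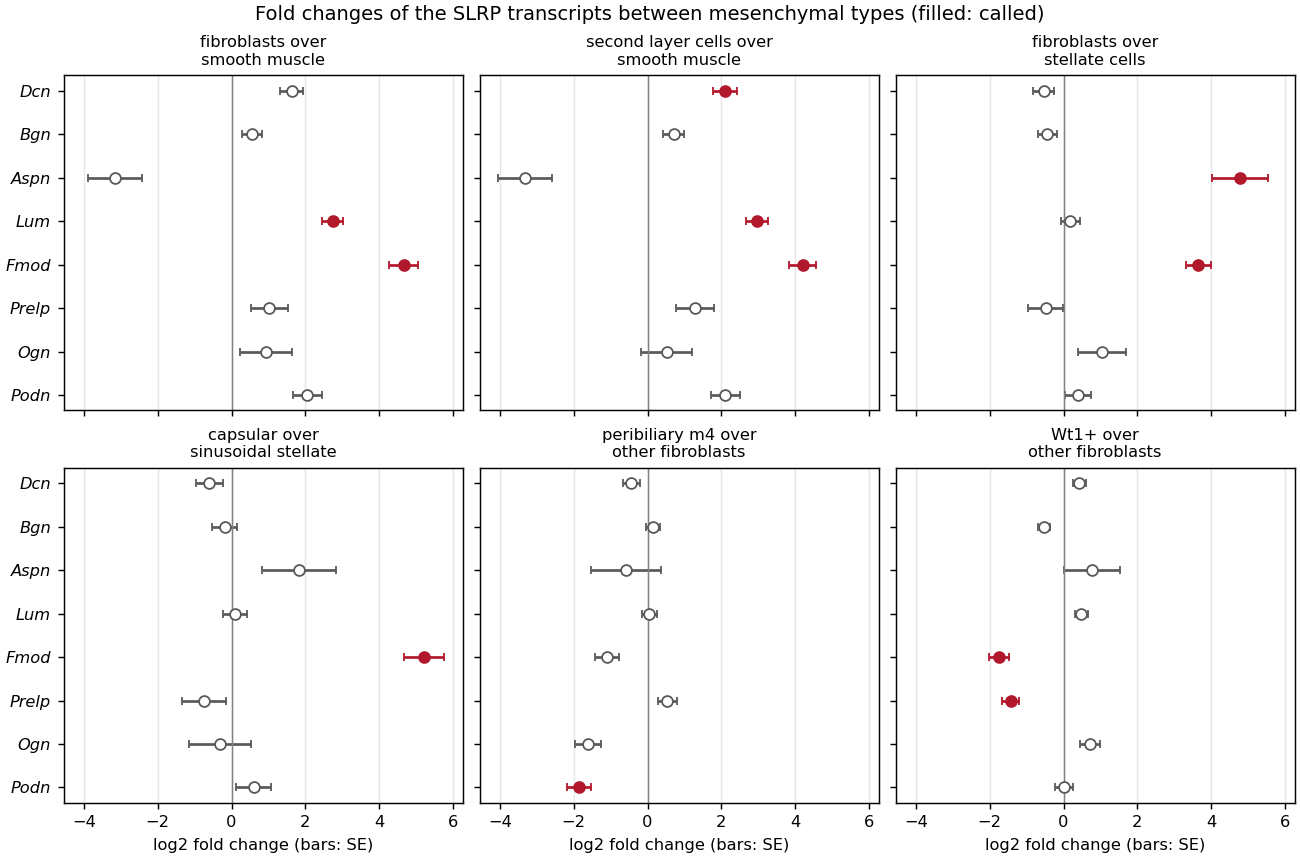
Log2 fold change of each SLRP transcript with its standard error (bars) in 6 comparisons between mesenchymal types, filled where called (adjusted p under 0.05 and at least 1 on the log2 scale, edgeR's quasi-likelihood test). Fmod is called in 5 of the 6 comparisons, and Aspn is the member with negative values against smooth muscle.

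Single cells usually carried several members at once. The median number of members with at least 20 counts was 7 in m1 and m10, 6 in m8, m11c, m12c, m3c and m5c, 5 in m4, m7c, m8c, m9c and m15c, and 3 in arterial m2c, against 1 in endothelial and 0 in immune and epithelial cells. This limit was not adjusted for depth, which differed between populations. The 156 cells of m8 held 20563444 counts and the 126 cells of m10 held 33391725. Cells with 6 or more members made up 88.9% of m10 and 19.4% of m7c, and cells with all 8 made up 9.43% of m11c and 3.87% or less of each other population. The 8 genes took 2.16% of all counts in m8, 2.09% in m7c and 0.410% in m2c.

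Which member was most abundant depended on the gene length used. Per kilobase of all annotated exons, the mesenchymal class held most Prelp in the male and most Bgn in the female pool. By the length of the principal transcripts, Dcn led in the male and Bgn in the female pool, where the annotated exons of Dcn sum to 5.84 kb and its principal transcripts have a median of 1.76 kb. Aspn came last of the 8 by both lengths in both pools of the mesenchymal class, while in arterial m2c it ranked above Ogn, Lum, Fmod and Podn in both.

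The levels of the members over the 14 populations showed which of them varied together, as a description. Bgn and Prelp were the most alike pair (Pearson r = 0.95 of log2(CPM + 1), both pools summed). Next came Dcn with Podn (0.81, or 0.85 without the mesothelial cells) and Dcn with Lum (0.76, or 0.89 without them). Aspn was negatively correlated with all 7 others, from -0.13 with Ogn to -0.58 with Podn. Without the mesothelial cells it was negative with all 7 as well, from -0.087 with Ogn to -0.66 with Bgn. Of the neighbours on a chromosome, Prelp and Fmod gave 0.25, or 0.39 without the mesothelial cells, and Aspn and Ogn -0.13. Over 1332 single mesenchymal cells the correlation was 0.51 for Bgn and Prelp, 0.63 for Dcn and Lum and -0.43 for Dcn and Aspn. The populations share libraries and plates and differ in their share of female cells, and the single cells differ in depth. Correlations within 1 pool were not computed.

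Across 13788 genes with at least 10 CPM in 1 of these populations, the 3 genes closest to each member by the same r were listed. The genes close to Dcn included Rcn1 (0.91) and Ctsl (0.90), and Podn was closest to S100a10 (0.93), Ctsl (0.93) and Cpz (0.90). Ctsl encodes the protease cathepsin L. Lum was closest to Dchs1 (0.95), Lpar6 (0.94) and Igsf10 (0.94), and Fmod to Col4a4 (0.93), Gas6 (0.92) and Fmo2 (0.92). Aspn was closest to Pgap4 (0.92), Cacna1c (0.89) and Rrad (0.89), of which Cacna1c encodes a subunit of the L-type calcium channel of contractile cells. Ogn had weaker partners, Lypd1 (0.80), Ackr3 (0.79) and C1ra (0.79). Bgn was closest to Gm15851 (0.96), Prelp and Tmem204 (0.94), and Prelp to Gm15851 (0.995), Bgn and Ifitm3 (0.95). Gm15851 overlaps Prelp, and its level was 9.51 to 13.8% of that of Prelp in every population.

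**Figure D5:**
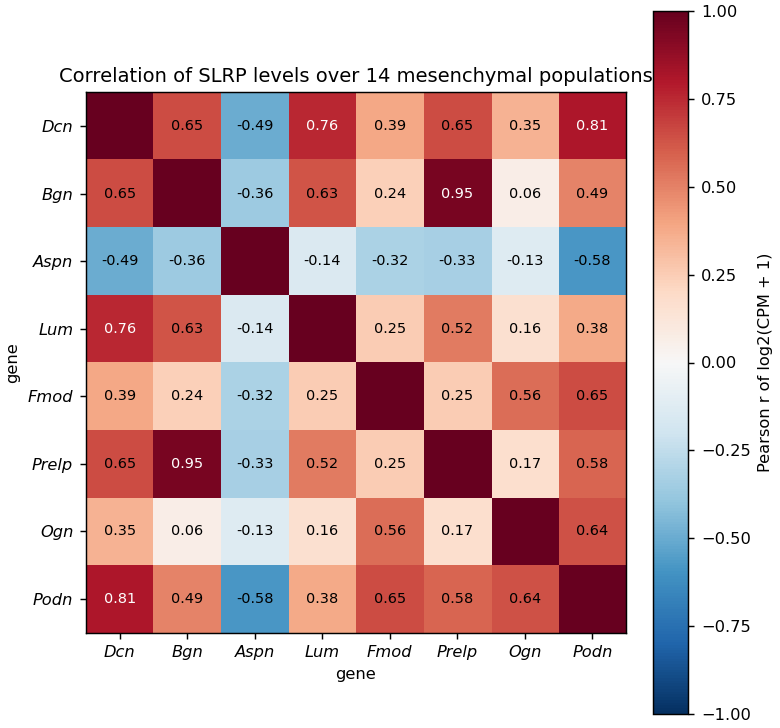
Pearson correlation of log2(CPM + 1) between the SLRP transcripts over 14 mesenchymal populations, red for positive and blue for negative values. The row of Aspn is negative against all 7 other members, and Bgn with Prelp (0.95) is the highest pair.

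Male and female pools are set side by side without a test, and each class has 1 pool of either sex. In the 10 populations with at least 5 cells in both, Bgn was lower in the female pool in all 10 (female over male 0.723 to 0.947) and Prelp likewise (0.457 to 0.902). Ogn was lower in 9 of 10 (median ratio 0.621) and Dcn in 8 of 10 (0.732). Lum was higher in the female pool in 7 of 10, with a median ratio of 1.10, and Fmod was split 5 and 5. Aspn was higher in the female pool in 1 of 10 (median ratio 0.737) and Podn in 4 of 10 (0.893). Female mesenchymal cells also had the higher depth, and sex, plate and depth cannot be told apart here.

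The rest of the matrix pathway was read from fixed gene lists. Against the mean of the other 3 classes, mesenchymal cells carried more of all 16 fibrillar collagens and their partners, such as Col6a2 (8.97 on the log2 scale), Col5a1 (8.96), Col1a1 (8.79) and Col1a2 (8.50), with a list median of 7.41 where the median over all genes was 0.02. Over all genes 9.32% were called higher and 2.26% lower. The median of the 8 SLRPs was 7.80. Of 10 further SLRP genes 8 were tested and 3 were higher, Omd (8.74), Optc (6.01) and Ecm2 (4.54). Their highest levels in any population were 54.7, 7.45 and 322 CPM. Of the enzymes that build chondroitin and dermatan sulfate chains 5 of 21 were higher, led by Chpf (5.90), Chsy3 (5.45), Chst11 (4.83) and Ust (4.30). Of 6 keratan sulfate enzymes 1 was, the sulfotransferase Chst4, which had 0 counts in all 6 other pools and its highest level, 591 CPM, in mesothelial cells. Of 18 other proteoglycans tested 9 were higher, led by Cspg4 (8.23), Vcan (8.05), Gpc3 (8.04) and Gpc6 (7.10), and 1, Spock3 (-3.74), lower. Of 13 matrix proteases and their enhancers tested 8 were higher, led by Mmp3 (8.45) and Mmp2 (7.10), and of 17 receptors and ligands bound by SLRPs 4 were higher, Tgfb3 (4.38), Egfr (4.33), Bmp4 (4.09) and Lrp1 (3.71), and 1 lower, Kdr (-2.85). Spock3 and Kdr are named after their values were seen. A higher call in this contrast does not place mesenchymal above endothelial cells, since Chst11 and Bmp4 were also called higher in endothelial than in immune and epithelial cells.

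In endothelial cells the collagen list moved in both directions against immune and epithelial cells, with 5 of 16 higher, led by Col5a2 (5.28), Fbn1 (5.24), Eln (5.11) and Col6a3 (4.18), and 3 lower, Col5a1 (-2.39), Col3a1 (-1.97) and Col1a2 (-1.71), the lower ones named after their values were seen. The median of the collagen list was -1.28 and that of the 8 SLRPs -1.62, where the median over all genes was 0.06. Over all genes 5.66% were called higher and 3.16% lower. Of the chain enzymes 6 of 21 were higher, led by Chst11 (7.50), Csgalnact1 (6.67) and Chst15 (4.68), and 1, Chpf (-7.08), was lower. Of 18 other proteoglycans 2 were higher, Tgfbr3 (6.32) and Hspg2 (3.90), and 3 lower, among them Sdc2 (-5.70) and Gpc3 (-4.79). Of 13 proteases 2 were higher, Adamts4 (5.01) and Htra1 (3.13), and 2 lower, Mmp9 (-6.42) and Pcolce2 (-5.56). Of 17 receptors and ligands 4 were higher, among them Bmp2 (6.36), Bmp4 (6.24) and Kdr (5.64), and 2 lower, among them Lrp1 (-4.76). Of the keratan sulfate enzymes Chst2 (4.51) and St3gal1 (2.32) were higher, and of the further SLRP genes Ecm2 (4.86).

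Between mesenchymal types few genes of these lists were called. Fibroblasts and SLC both exceeded SMC in Dpt, a dermatopontin that binds decorin (3.15 and 3.41), Col1a1 (1.77 and 1.75), Col1a2 (1.74 and 1.73), Col3a1 (1.39 and 1.70) and Lrp1 (1.59 and 1.63), the 2 comparisons sharing their SMC sums. Pcolce (1.95) was also higher in fibroblasts, and Gpc4 (1.90) in SLC. Against stellate cells fibroblasts held more Mmp3 (6.40), Pcolce2 (5.83), Gpc3 (2.82) and Dpt (2.05) and less Gpc4 (-1.77), and between the 2 stellate populations no gene of these lists was called. Peribiliary m4 held less Mmp3 (-3.20) and Dpt (-1.66) and more Bmp2 (4.46) than other fibroblasts, calls that were lost without the sums of under 10 cells, where edgeR called 0 genes for m4 and 1106 had an unadjusted p under 0.05. Wt1+ fibroblasts held more Spock2 (4.33), Fn1 (2.40), Pcolce2 (2.20), Gpc3 (2.13) and Mmp3 (1.96) and less Bmp2 (-4.96). No chain enzyme, keratan sulfate enzyme or further SLRP gene was called in any of these 6 comparisons.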

How the data were processed

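Cells of healthy mouse liver were profiled by Smart-seq2 in plates with short single-end reads. The authors deposited whole-number read counts per gene and cell after removing low-quality cells, doublets with high gene numbers and cells with signs of mixed types, together with cell tables giving class, cluster and sex. The submitters' processing notes name bcl2fastq, Bowtie, Bowtie2, Subread, featureCounts, Seurat, GRCm38 and mm10, without roles, and the strand setting of the counting is not given in the sources used here. Populations follow the authors' pagoda2 clusters.

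The members and gene lists were chosen with earlier results of these data known. The 92 spike-in rows were left out, and 5 mesenchymal cells without a population enter class sums only. Counts were summed per class, type or fibroblast cluster within each pool of 1 sex, with at least 5 cells per sum, and levels are CPM of these sums. Each label holds pools of unnamed mice, so replication is 2 pools per class. Comparisons used edgeR's quasi-likelihood test (edgeR 4.0.16, limma 3.58.1, R 4.3.3) on all sums of a fit, with TMM factors, filterByExpr and Benjamini-Hochberg adjustment over all genes tested, and calls needed an adjusted p below 0.05 with a log2 difference of 1 or more in either direction. Sums of one pool come from the same sample, and their deviations over 11728 genes correlated at 0.19 to 0.40 in the 6 pairs of the type fit and at 0.07 to 0.14 over 11672 genes in the cluster fit, so the pool as a block was tried as an alternative.

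Other alternatives were DESeq2 1.42.0, its size factors, no filter, cells thinned to 50000 counts, sums per plate, at least 3 or 10 cells per sum and each sum left out. Chosen after seeing the data were the fits without the cells labelled Cont, without e4 and without m9c, the leaving out of single type and cluster sums, the male m4 differences against the clusters that both pools hold, and the principal transcript lengths. Named genes are all members, the 3 genes closest to each by r over the populations (1 of them is not reported here), and up to 4 called genes per list with the largest fold changes. Shares have exact binomial 95% intervals, and a count of 0 allows 3 counts. Python 3.11.15, numpy 2.4.6, pandas 2.3.3, scipy 1.17.1 and matplotlib 3.10.9 were used. Motifs were searched in RefSeq promoter windows of GRCm38.p6.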

Additional observations from a re-analysis of the deposited data

Results flagged for a closer look

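In 3 members, Fmod, Aspn and Lum, the peribiliary cluster m4 lay on opposite sides of the other fibroblast clusters in the male and the female pool, and the difference between the pools was not tested. For Fmod the log2 difference of m4 from the mean of the other clusters was -1.55 in the male and 0.22 in the female pool. For Aspn it was 0.26 in the male and -3.59 in the female pool, and for Lum -0.042 and 0.052. These means cover 5 clusters in the male and 3 in the female pool, since m8 and m10 hold male cells only. Against the 3 clusters that both pools hold, m1, m11c and m12c, a comparison chosen after seeing the data, the male differences were -0.99 for Fmod, -0.14 for Aspn and -0.35 for Lum, so that Aspn was no longer opposite. The female m4 sum holds 9 cells and the male one 89.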

How the results depend on the processing

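Over all refits and the untested differences within 1 pool, called members held 309 times and moved only in size 6 times. They lost the call 22 times and reversed 0 times. Held means direction and call kept in a refit, or a value within 1 standard error of the main fit in 1 pool. Members not called gained a call 39 times and changed sign 26 times. The differences within 1 pool could not keep or lose a call, and their sign changes in members not called are outside the 26. The gained calls were, in endothelial cells, of Dcn, Lum, Aspn and Ogn (DESeq2), Aspn (thinned), Lum (block, without e4), Podn (without e4) and Podn and Dcn (without 1 pool), all lower. In fibroblasts against SMC they were of Dcn and Podn (DESeq2, unfiltered, thinned, block), Dcn (per plate, without m9c), Prelp (block) and Aspn (DESeq2, unfiltered). In SLC they were of Podn (DESeq2, its size factors, unfiltered, thinned, block, without m9c), Prelp (unfiltered, block) and Aspn (DESeq2, unfiltered), and in m4 of Ogn (unfiltered, thinned, without 1 sum) and Fmod (unfiltered). Without the low-count filter the genes called numbered 4287 for mesenchymal against other classes (2784 with it), 3496 for endothelial (2123), 596 for fibroblasts against SMC (138), 799 against stellate cells (154), 377 for capsular against sinusoidal (5), 869 for SLC against SMC (162), 341 for m4 (40) and 455 for Wt1+ (198). DESeq2 called 4248, 4814, 802, 1158, 985, 1479, 309 and 914 in that order. Sums per plate gave 3790 for endothelial, 328, 727, 70 and 309 for the 4 type comparisons, 22 for m4 and 96 for Wt1+. Thinning gave 238, 237, 18 and 316 for the types and 104 for m4. With the pool as a replicate block the counts were 314 for fibroblasts against SMC, 408 for SLC, 17 for m4, and 0 by edgeR for capsular against sinusoidal, where 1732 genes had an unadjusted p under 0.05. The block changed no call of a member beyond those given above. Sums of 3 or more cells gave 35, 8 and 43 for fibroblasts against SMC, capsular and SLC. Sums of 10 or more gave 121 for Wt1+ and 0 by edgeR for m4 (1106 unadjusted). Without m9c SLC gave 261. Leaving out 1 sum gave 1562 to 2626, 665 to 1871, 17 to 37, 13 to 164, 0 to 0 (1672 and 2815 unadjusted), 23 to 52, 5 to 69 and 143 to 217 in the same order. Uncalled log2 values that changed sign were, for endothelial cells, Fmod 1.19 and Podn 1.52 per plate, Podn 0.28 without Cont cells and Fmod -3.13 to 0.47 without 1 pool. For capsular against sinusoidal they were Lum -0.0053 and Bgn 0.019 in the block, Ogn 0.48 per plate, Podn -0.17, Lum -0.057 and Aspn -0.17 with sums of 3 cells, and Ogn -1.91 to 0.45 and Bgn -0.42 to 0.022 without 1 sum or within 1 pool. Others were Lum -0.054 per plate (fibroblasts against stellate), Ogn -0.19 to 1.08 without 1 sum (SLC), Lum in m4 (-0.035 thinned, -0.12 with 10 cells, -0.098 to 0.15 without 1 sum), Aspn in m4 (0.33 with 10 cells, -4.54 to 0.36 without 1 sum) and Podn in Wt1+ (-0.018 unfiltered, -0.13 thinned, -0.036 per plate, -0.19 to 0.33 without 1 sum or within 1 pool). The causes were not tested. Levels moved by more than their spread in 44 alternatives and not in 148, and shares of cells moved in 110 and not in 114.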
